A study of Mus musculus with 8 samples.

Results

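The cells described here are the oligodendrocyte progenitor cells (OPCs) of the adult mouse prefrontal cortex (PFC). They were taken as every cell that the authors' deposited annotation names OPC, each looked up in the count matrix of its library by barcode, and they numbered 1337 of 8997 annotated PFC cells. By library, 338 OPCs came from WT replicate 1, 447 from WT replicate 2, 351 from *Setd1a*+/- replicate 1 and 201 from *Setd1a*+/- replicate 2. The other 7 annotated types were excitatory neurons, interneurons, astrocytes, microglia, endothelial cells, newly formed oligodendrocytes and mature oligodendrocytes.

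The study compared mice that carry a loss-of-function mutation in 1 copy of *Setd1a*, a gene for an enzyme that methylates lysine 4 of histone H3, with their WT littermates, and profiled dissociated PFC tissue by droplet-based single-cell RNA sequencing. Both groups were untreated male mice of the strain C57BL/6N, 8 to 10 weeks old by the sample labels (the study's methods give an older age), and the *Setd1a*+/- group carried a short frameshift deletion made by CRISPR-Cas9 ahead of the coding sequence of the catalytic SET domain. The deletion comes from 1 mutant line that was backcrossed, and it is present in all cells of the animal, so the OPCs and all cells around them carry it. Each genotype gave 2 libraries, each library pools the tissue of 2 mice, and single animals cannot be told apart.

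OPCs are the dividing glial cells of the brain that express the platelet-derived growth factor receptor alpha and the proteoglycan NG2. They are spread evenly through grey and white matter, receive synapses from neurons, and persist in the adult cortex as a reserve from which new myelinating oligodendrocytes form. On the way to myelination an OPC leaves the cell cycle, loses *Pdgfra* and *Cspg4*, passes through a short committed stage marked by *Gpr17*, *Bmp4* and *Enpp6*, and then makes myelin proteins such as *Mbp* and *Mog*.

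Where 4 values are listed they stand in the order WT replicate 1, WT replicate 2, *Setd1a*+/- replicate 1 and *Setd1a*+/- replicate 2. The OPCs of the libraries held 667051, 767005, 506502 and 373372 UMIs (unique molecular identifiers, each a counted RNA molecule), with a median of 1919, 1658, 1403 and 1796 UMIs per OPC. Over the 4 libraries the median OPC had 1651 UMIs, the lowest of the 8 types, against 2056 in mature oligodendrocytes and 6546 in excitatory neurons. Levels are given as CPM, the number of UMIs of a gene per 1000000 UMIs summed over the cells of that type in a library, and a mean is given ± the SD over the 4 libraries (n = 4).

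The libraries also differed by replicate. Among 4000 genes with at least 100 UMIs in the OPCs, 11 were at least 4-fold higher in each library of replicate 2 than in either of replicate 1, and 1 was at least 4-fold lower. The same comparison between genotypes found 2 genes at least 4-fold higher in both WT libraries and 0 at least 4-fold higher in both *Setd1a*+/- libraries. The 2 were *Apod* and *Vtn*. Both rested on few OPCs, and their levels without the OPCs of few markers are given below. Of the OPC barcodes, 2 were also OPC barcodes of another library and 10 were annotated as any type in another library, of 35 barcodes that were shared among all annotated PFC cells.

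The levels of 4 marker genes of OPCs are described first. The authors named clusters of these same counts by known marker genes, so high levels here do not check the name independently. *Pdgfra*, the receptor through which platelet-derived growth factor keeps OPCs dividing (ENSMUSG00000029231, chromosome 5, 75152292 to 75198215 of GRCm38), was at 1507, 831, 807 and 1020.4 CPM in the OPCs. The next type was microglia, with a mean of 44.9 CPM, and newly formed oligodendrocytes held 2.99 CPM. *Ptprz1*, a receptor-type tyrosine phosphatase with chondroitin sulfate chains (ENSMUSG00000068748, chromosome 6, 22875502 to 23052916), was at 4724, 3692, 2705 and 4031 CPM. Astrocytes came next for *Ptprz1* with 917 CPM. *Lhfpl3*, a membrane protein of the LHFPL family (ENSMUSG00000106379, chromosome 5, 22746059 to 23275597), was at 1289, 883, 1044 and 1002 CPM, and newly formed oligodendrocytes held 241 CPM. *Vcan*, the matrix proteoglycan versican (ENSMUSG00000021614, chromosome 13, 89655312 to 89742509), was at 1087, 814, 543 and 889 CPM, and newly formed oligodendrocytes held 458 CPM. For *Pdgfra*, *Ptprz1* and *Lhfpl3* the lowest OPC library lay above the highest library of each other type. For *Vcan* it did not.

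**Figure D1:**
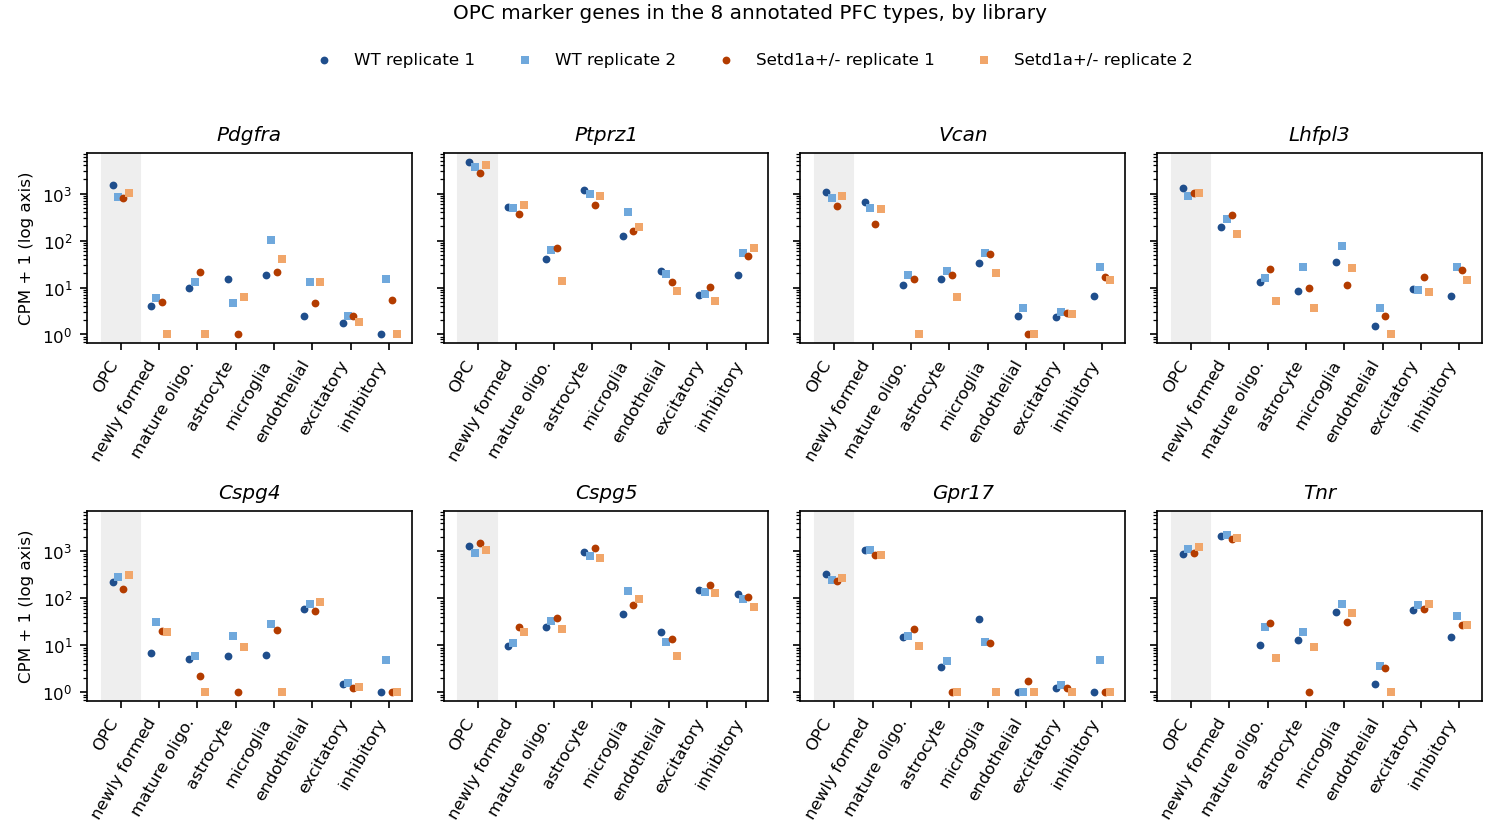
Levels of 8 OPC marker genes (CPM + 1, logarithmic axis) in the 8 annotated PFC types, with 1 point per library and the OPCs on a grey band. *Pdgfra*, *Ptprz1*, *Lhfpl3* and *Cspg4* sit higher in all 4 OPC libraries than in any library of another type, while *Gpr17* and *Tnr* are higher in newly formed oligodendrocytes and *Cspg5* overlaps with astrocytes.

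At the level of single cells, *Ptprz1* was counted in 98.7% (95% Wilson interval 97.9 to 99.1) of the OPCs, *Lhfpl3* in 80.8%, *Pdgfra* in 77% and *Vcan* in 70.7%. A *Pdgfra* UMI was found in 3.32% of microglia and 0.793% of excitatory neurons, types that should lack it and whose median cells had 2037.5 and 6546 UMIs, against 1651 in OPCs. By library, *Pdgfra* was counted in 91.7, 71.1, 66.1 and 84.6% of the OPCs. The libraries with the lowest median UMIs per cell had the lowest shares. UMIs of all 4 markers were found in 635 OPCs (47.5%), and 46 OPCs (3.44%) had UMIs of fewer than 2 of the 4. Intervals on shares and counts cover counting error only.

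The 46 OPCs with fewer than 2 markers were unevenly placed, with 1, 21, 23 and 1 in the 4 libraries. In WT replicate 2, 13 of the 21 held at least 5 UMIs of *Apod*, the gene for the lipid carrier apolipoprotein D, against 1 of 1 in WT replicate 1 and 0 of 23 and 0 of 1 in *Setd1a*+/- mice. In all, 15 OPCs held 5 or more *Apod* UMIs, and 14 of the 15 had fewer than 2 OPC markers. Among these 15 cells *Pdgfra* was counted in 2, against 77.8% of the other OPCs, *Lhfpl3* in 1, against 81.6%, and *Olig1* in 1, against 44.5%. *Ptprz1* was counted in 13, against 98.8% of the other OPCs, and the lineage factor *Sox10* in 5 of 15, against 436 of the 1322 other OPCs. *Fabp7*, a fatty acid binding protein of glial progenitors, was counted in 14 of the 15, against 70.8% of the other OPCs. The gap junction gene *Gja1* was counted in 12 of the 15, against 0.756% of the other OPCs, and *Frzb*, a secreted Wnt antagonist, in 13, against 6.51%. *Npy*, the gene for neuropeptide Y, reached 5 or more UMIs in 13 of the 15. These cells carry the OPC name in the annotation with few of its markers, and no other type name is given to them here. They are kept in the values below, and the genotype comparisons that rest on them are given with and without the OPCs of fewer than 2 markers.

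The summed levels of markers of the other types differed in the OPCs. The 6 newly formed oligodendrocyte markers summed to 784, 851, 729 and 932 CPM in the OPC libraries, against 4481 to 6168 CPM in their own type, and were the largest of the 7 sums in all libraries but WT replicate 2. The summed level of 6 excitatory neuron markers was 31.5 to 112 CPM per OPC library, against at least 1872 CPM in the neurons themselves. The 6 microglia markers summed to 24 to 97.8 CPM and the 6 endothelial and mural markers to 16.1 to 67.1 CPM. The 6 astrocyte markers summed to 705 to 927 CPM, most of it *Slc1a3* and *Aldoc*, while *Aqp4* and *Gja1* had 33 and 38 UMIs in all OPCs together. The 6 mature oligodendrocyte markers summed to 105, 587, 19.7 and 88.4 CPM and the 6 interneuron markers to 148, 1055, 193 and 233 CPM, where WT replicate 2 stood above the others through *Apod* and *Npy*. *Klk6* was at 0 UMIs, which allows up to 3 UMIs. Leaving out the 86 OPCs with at least 3 markers of any other type, 63 of them by astrocyte markers, put the ratio of *Pdgfra* in OPCs to *Pdgfra* in microglia at 23.5, against 23.2 in all OPCs and 43.3 without WT replicate 2.

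The transcriptome of the OPCs was then set against the other types, as a description with no test, because the types are clusters of these same counts. Of the 4000 genes with at least 100 UMIs in the OPCs, 903 (22.6%) had their highest mean in OPCs, and 170 (4.25%) were higher in the lowest OPC library than in any library of the other 7 types. The filter on OPC UMIs leaves out genes that are high in another type alone, which raises these shares. Where 4.25% of all genes is given below, it is this share of the 4000 genes with at least 100 UMIs in the OPCs. Newly formed oligodendrocytes were the next type for 53 of the 170, astrocytes for 30, excitatory neurons for 26 and interneurons for 25. Across the 4000 genes the mean log levels of OPCs correlated with those of newly formed oligodendrocytes at r = 0.75, of microglia and astrocytes at 0.67 each, of mature oligodendrocytes at 0.61, and of excitatory neurons and endothelial cells at 0.50 each. These correlations are across genes of the same libraries, and genes are not independent replicates. The number above all other libraries was 111 with every cell thinned to 1000 UMIs, and 259 without *Setd1a*+/- replicate 1, where fewer libraries bound it.

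Among the 20 genes that stood out most from the next type, several encode enzymes and carriers. *Cdo1*, which encodes cysteine dioxygenase, the first enzyme of taurine synthesis from cysteine, was at 994, 795, 1153 and 935 CPM, with 41.5 CPM in astrocytes and 18.3 CPM in newly formed oligodendrocytes. *Rlbp1*, a carrier of retinaldehyde best known in the retina, was at 629.6, 609, 596 and 605 CPM, and astrocytes came next with 106 CPM. *Pnlip*, the gene for pancreatic lipase, was at 111, 89.96, 148 and 115 CPM and at most 3.52 CPM in the mean of any other type. *Plpp4*, a lipid phosphatase, had a mean of 180.3 ± 12.5 CPM. In each of these genes the lowest OPC library lay above every library of the other types. The choice of the 20 by the largest ratios in these same libraries makes this likely, so it adds no support.

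Secreted and surface proteins made up a further group of the 20. *Fam19a4*, a small secreted protein, had a mean of 63.5 ± 8.37 CPM in OPCs and was at 0 UMIs in newly formed and mature oligodendrocytes. *Emid1*, an extracellular protein with an EMI domain, had 172 ± 15.4 CPM against 12.7 CPM in newly formed oligodendrocytes. *Cpxm1*, a secreted carboxypeptidase-like protein, had 102 ± 34.9 CPM, and *Angptl1*, an angiopoietin-like protein, 69 ± 24.8 CPM. *Pcdh15*, a protocadherin required in the hair cells of the inner ear, had 252 ± 47.1 CPM against 36.2 CPM in newly formed oligodendrocytes, and *Megf11*, a membrane protein with EGF-like repeats, 103 ± 7.04 against 9.28 CPM. Signaling genes among the 20 were *Shc4*, an adaptor of receptor tyrosine kinases (79.9 ± 24.6 CPM), the ubiquitin ligase *Lnx1* (144 ± 39.2 CPM), the kinase *Stk32a* (61.1 ± 21.4 CPM) and *Ppp1r14b*, an inhibitor of protein phosphatase 1 (123 ± 47.9 CPM). *Tmem255b*, a membrane protein, had 164 ± 55.4 CPM. The 20 also held *Pdgfra*, *Ccnd1* and the transcription regulators *Myt1* and *Rbpjl*.

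Transcription factors of the lineage were then read by stage. Of 28 factors on the list 18 reached 100 UMIs in the OPCs, and 5 of the 18, among them *Olig1*, *Sox5*, *Sox11* and *Zeb1*, lay above every library of the other types, against 4.25% of all genes. *Olig1*, a basic helix-loop-helix factor of the lineage, was at 430.3, 319, 397 and 284 CPM, with 174 CPM in newly formed and 161 CPM in mature oligodendrocytes. *Olig2*, which specifies the lineage, was at 141, 146, 103 and 131 CPM, with 87.3 CPM in newly formed oligodendrocytes. *Sox5*, which delays differentiation together with *Sox6*, had 124 ± 19.97 CPM against 62.1 CPM in astrocytes, whereas *Sox6* had 264 ± 52.4 CPM and overlapped with newly formed oligodendrocytes at 318 CPM. *Sox10*, which is kept through the whole lineage, had 236 ± 82.3 CPM in OPCs, 236 in newly formed and 149.7 in mature oligodendrocytes.

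The factors of differentiation named here were lower in the OPCs than in newly formed oligodendrocytes. *Tcf7l2*, which acts at the onset of myelination, was at 61.5, 61.3, 43.4 and 72.3 CPM against a mean of 437 CPM. *Nkx2-2* had 100.03 ± 19.8 against 240.4 CPM, *Zfp488* 26.1 ± 13.9 against 85.4 CPM, and *Sox4* 117 ± 17.4 against 346 CPM. *Myrf*, the factor that switches on myelin genes, was counted in 2.47% of OPCs and 27.5% of newly formed oligodendrocytes, whose median depths were 1651 and 2802 UMIs. The astrocyte-fate factor *Sox9* had 2 UMIs in all OPCs.

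Against newly formed oligodendrocytes alone, 834 of the 4000 genes (20.9%) were higher in the lowest OPC library than in the highest library of that type, and 357 were lower in the same sense. The filter on OPC UMIs leaves out genes that are high in newly formed oligodendrocytes alone, such as *Enpp6*, so these counts cannot be weighed against each other. The genes with the largest ratios in favor of OPCs were led by *Pdgfra* and by *Cspg5*, the transmembrane proteoglycan neuroglycan C, which was at 1292, 944, 1485 and 1079 CPM in OPCs and 15.1 CPM in newly formed oligodendrocytes. *Etv5*, a factor induced by growth factor signaling (68 ± 12.1 CPM), the small G protein gene *Rasl11a* (70.5 ± 19.7 CPM), the somatostatin receptor gene *Sstr1* (59.2 ± 14.7 CPM) and the complement protease gene *Masp1* (51.8 ± 16.4 CPM) were counted in OPCs and at 0 UMIs in all 4 newly formed libraries, which allows up to 3 UMIs in each. In newly formed oligodendrocytes 1 UMI equals 5.10 CPM in WT replicate 2 and 8.96 CPM in *Setd1a*+/- replicate 2, so the size of these ratios is loosely bounded. *Adm*, the gene for the peptide adrenomedullin, had 95.5 ± 31 against 0.975 CPM, and *Chl1*, an adhesion protein of the L1 family, 259.7 ± 110.1 against 4.49 CPM. The OPC libraries of *Cspg5*, *Etv5*, *Rasl11a*, *Masp1*, *Adm* and *Chl1* overlapped with those of a type outside the lineage, and those of *Sstr1* did not.

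In the other direction, among genes with at least 100 UMIs in the OPCs, the largest ratios included those of *Mbp*, *Fyn*, *Epb41l2*, *Tubb4a*, *Cnp*, *Pdcd4*, *Bfsp2*, *Map1b* and *Arhgap5*. *Mbp*, the gene for myelin basic protein, was at 121, 158, 154 and 206 CPM in OPCs and 10234 CPM in newly formed oligodendrocytes. *Fyn*, a kinase that acts on *Mbp* translation and on the cytoskeleton, had 118 ± 27.3 CPM in OPCs, 2941 CPM in newly formed and 24.6 CPM in mature oligodendrocytes. The cytoskeleton gene *Map1b* followed the same course, with 129 ± 24.9, 1599.8 and 127 CPM, as did *Pdcd4*, with 55.3 ± 20.2, 873 and 19.8 CPM. *Tubb4a*, a tubulin of myelinating cells, was 69 ± 41.2 CPM in OPCs and 1232 and 1264 CPM in the later stages. Of 22 genes of myelin and maturation, 12 reached 100 UMIs in OPCs, and 0 of the 12 lay above all other types, against 4.25% of all genes, a share at which a list of this length may hold none.

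**Figure D2:**
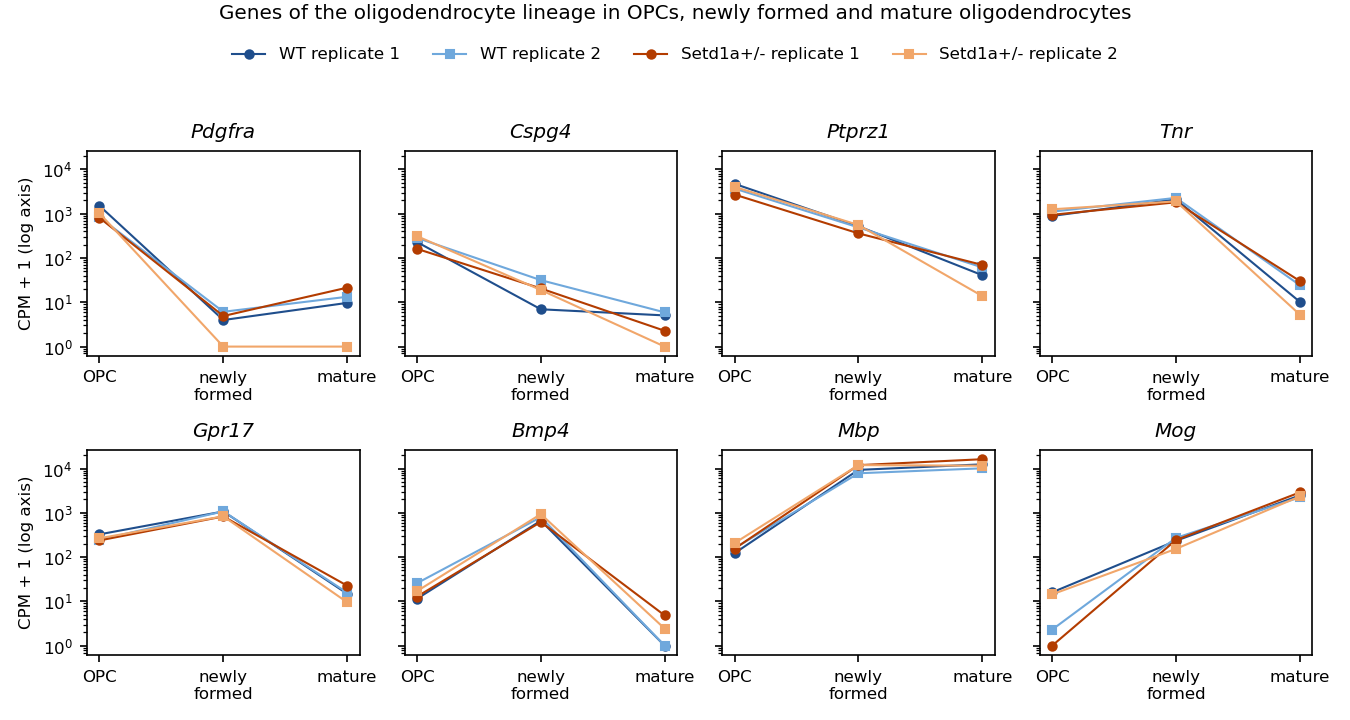
Levels of 8 genes of the oligodendrocyte lineage (CPM + 1, logarithmic axis) in OPCs, newly formed and mature oligodendrocytes, with 1 line per library. *Pdgfra*, *Cspg4* and *Ptprz1* are highest in OPCs, *Tnr*, *Gpr17* and *Bmp4* peak in newly formed oligodendrocytes, and *Mbp* and *Mog* are lowest in OPCs in all 4 libraries.

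Genes of the committed stage fell into separate patterns within the OPCs. *Neu4*, a sialidase, was counted in 61% of OPCs and at 559, 657, 527 and 728 CPM, and in 88.5% of newly formed oligodendrocytes. *Gpr17*, a receptor that holds cells at the committed stage, was counted in 34.4% (95% Wilson interval 31.9 to 37) of OPCs, against 87.1% of newly formed oligodendrocytes and 0.180% of excitatory neurons. By library *Gpr17* was found in 42.9, 34, 26.2 and 35.3% of OPCs, and its level of 325, 245, 237 and 265 CPM varied little between libraries. *Bmp4* was counted in 2.69% of OPCs against 72.2% of newly formed oligodendrocytes, and *Enpp6* in 1 OPC against 82.4%. All these shares are of unthinned cells, with medians of 1651 UMIs in OPCs and 2802 in newly formed oligodendrocytes, so depth adds to the differences. Thus *Neu4* and *Gpr17* were shared by OPCs and the next stage in these cells, while *Bmp4* and *Enpp6* were rare in OPCs.

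Low counts of myelin genes need a background. *Mbp* was counted in 14.9% of OPCs, against 16.8% of astrocytes and 17.8% of microglia, which have median depths of 2026 and 2037.5 UMIs against 1651 in OPCs. With all cells thinned to 1000 UMIs the shares were 9.27% in OPCs, 9.93% in astrocytes, 11% in microglia, 6.21% in endothelial cells, 5.55% in excitatory neurons and 4.70% in inhibitory neurons. After thinning the share in OPCs thus lay below those of 2 types that should lack *Mbp* and above those of 3, and whether it exceeds free RNA was not tested. No OPC was shallower than 1000 UMIs.

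The extracellular matrix genes include several chondroitin sulfate proteoglycans, of which NG2 gave the older name of these cells. Of 25 genes on the list 13 reached 100 UMIs and 5 of these (*Ptprz1*, *Cspg4*, *Sdc3*, *Xylt1* and *Chst11*) lay above every library of the other types, against 4.25% of all genes. *Cspg4*, which encodes NG2, was at 228, 283, 159.9 and 311 CPM and came next in endothelial cells, a cluster for which mural markers were also listed, with 67.5 CPM. *Sdc3*, the heparan sulfate proteoglycan syndecan 3, was nearly equal in the 4 libraries, at 184, 188, 184 and 174 CPM. *Xylt1*, the enzyme that starts the glycosaminoglycan chains, was at 235, 194, 189.5 and 219.6 CPM against 42.7 CPM in newly formed oligodendrocytes, and *Chst11*, which sulfates chondroitin, was at 91.4, 79.5, 140.2 and 64.3 CPM against 18.9 CPM in endothelial cells. *Bcan* and *Ncan*, the hyaluronan-binding proteoglycans brevican and neurocan, had 392 ± 46.6 and 206 ± 21.8 CPM in OPCs and were shared with astrocytes at 486 and 176 CPM. *Tnr*, the gene for tenascin R, had 1049 ± 168 CPM and was higher in newly formed oligodendrocytes at 2025 CPM. *Matn4*, the gene for the matrix protein matrilin 4, was at 454, 336, 479.8 and 429 CPM against 102 CPM.

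Of 41 adhesion, guidance and synapse genes 23 reached 100 UMIs, and 4 of these (*Cntn1*, *Nlgn3*, *Lrrtm3* and *Megf11*) lay above every library of the other types, against 4.25% of all genes. *Cntn1*, which encodes contactin 1, was at 1103, 771, 967 and 943 CPM against 399.7 CPM in excitatory neurons. *Nlgn3*, a neuroligin, an adhesion protein of synapses, was at 232, 229, 233 and 246 CPM, with 166 CPM in newly formed oligodendrocytes. *Lrrtm3*, a leucine-rich repeat protein of synapses, had 203 ± 28.2 CPM against 110.4 CPM in interneurons.

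Among growth factor receptors, 5 of 18 reached 100 UMIs and *Pdgfra* alone lay above all other types, against 4.25% of all genes, and the list is short. *Ntrk2*, the receptor of brain-derived neurotrophic factor, was at 504, 353, 479.8 and 415 CPM and higher in astrocytes at 856 CPM. *Fgfr1* had 38.3 ± 11.8 CPM, *Erbb3* 32.4 ± 6.17 CPM and *Igf1r* 30.2 ± 3.65 CPM, while *Fgfr2*, *Egfr* and *Met* had 4, 1 and 1 UMIs in all OPCs. Of 18 ligand genes *Tgfa*, a ligand of the epidermal growth factor receptor, reached 100 UMIs with 87.7 ± 21.7 CPM, and 5 (*Ntf3*, *Igf2*, *Lif*, *Nrg2* and *Cntf*) were at 0 UMIs.

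Neurotransmitter receptors were the next group, since OPCs receive synaptic input. Of 31 ionotropic receptor genes and their partners 8 reached 100 UMIs, and 1 of these lay above all other types, against 4.25% of all genes. *Gria2*, the AMPA receptor subunit that limits calcium entry, was at 866, 716, 622 and 859.7 CPM, overlapping with newly formed oligodendrocytes (752 CPM) and below excitatory neurons (1047 CPM). *Gria3* and *Gria4* had 206 ± 53.3 and 99.7 ± 35.8 CPM, overlapping with excitatory neurons at 273 and 80.5 CPM, while astrocytes held 12.8 and 4.95 CPM. That gene was *Cacng4*, an auxiliary subunit of AMPA receptors, at 621, 485, 328 and 479 CPM, with 128 CPM in newly formed oligodendrocytes and 6.04 CPM in excitatory neurons. Among NMDA receptor subunits *Grin3a* had 103 ± 12.1 CPM in OPCs and 179 CPM in interneurons, while *Grin1*, *Grin2a* and *Grin2b* had 27, 8 and 32 UMIs in all OPCs. Of the GABA-A subunits, *Gabrb1* had 66.5 ± 2.19 CPM and *Gabrg1* 51.2 ± 10.1 CPM, both higher in astrocytes at 345 and 141 CPM.

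**Figure D3:**
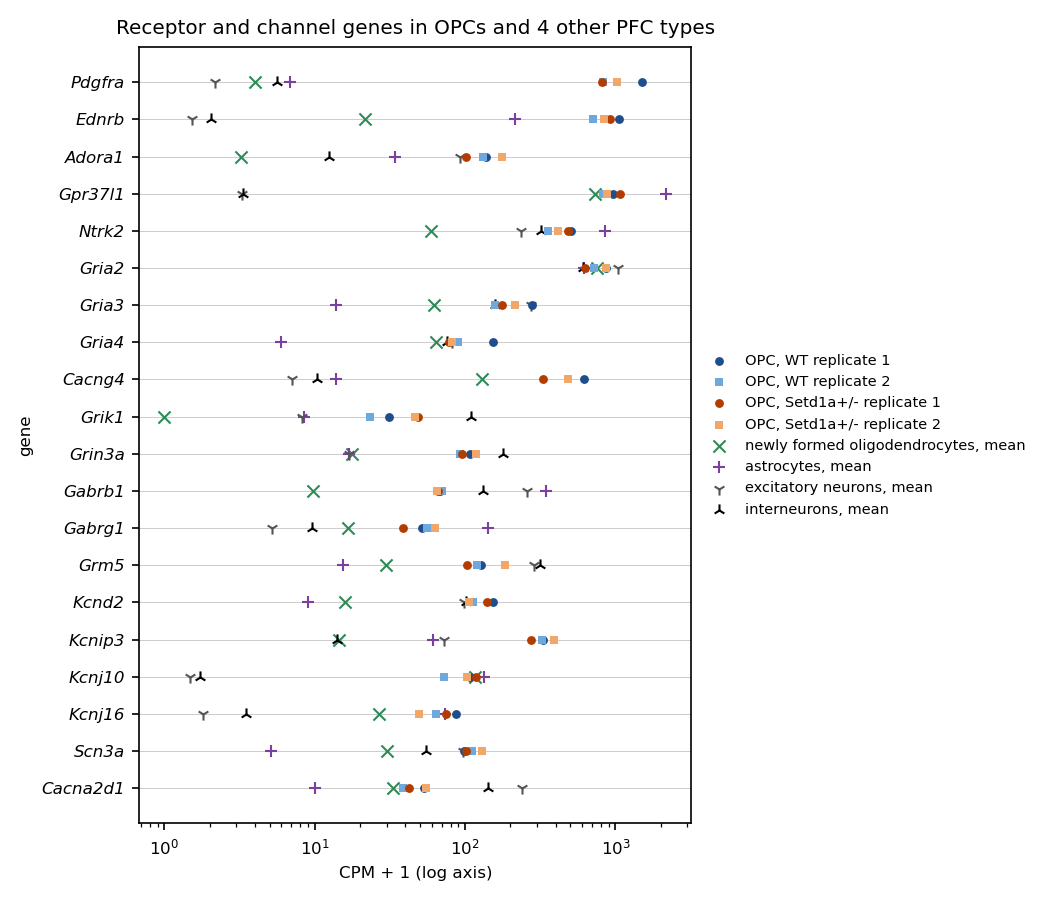
Levels of 20 receptor and channel genes (CPM + 1, logarithmic axis), with 1 point for each of the 4 OPC libraries and 1 mark for the mean of newly formed oligodendrocytes, astrocytes, excitatory neurons and interneurons. For *Pdgfra*, *Ednrb*, *Cacng4* and *Kcnip3* the OPC points lie to the right of all marks, while those of *Gria2* lie among the marks and those of *Gpr37l1* and *Gabrb1* to the left of the astrocyte mark.

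Of 22 G protein-coupled receptors 8 reached 100 UMIs, and 3 of these (*Ednrb*, *Adora1* and *Adgrl3*) lay above all other types, against 4.25% of all genes, in a short list. *Ednrb*, the endothelin B receptor, was at 1052, 712, 920.04 and 833 CPM against 214 CPM in astrocytes. *Adora1*, the adenosine A1 receptor, was at 136, 130.4, 101 and 174 CPM against 91 CPM in excitatory neurons and 2.25 CPM in newly formed oligodendrocytes. *Gpr37l1*, an orphan receptor of glia, had 931 ± 107 CPM and was higher in astrocytes at 2176 CPM. The glutamate receptor *Grm5* had 133 ± 34.5 CPM in OPCs, 315 CPM in interneurons and 14.5 CPM in astrocytes. *Lpar1* and *S1pr5*, receptors of lysophospholipids, had 6 and 1 UMIs in all OPCs.

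Of 34 voltage-gated channel genes and auxiliary subunits 10 reached 100 UMIs, and 1 of these lay above all other types, against 4.25% of all genes. It was *Kcnip3*, a calcium-binding partner of A-type potassium channels, at 328, 323, 274 and 388 CPM, with 71.6 CPM in excitatory neurons. *Kcnd2*, the pore subunit of A-type channels, had 127 ± 22 CPM, overlapping with interneurons at 101 CPM. The sodium channel gene *Scn3a* had 109 ± 14 CPM and excitatory neurons 95.7 CPM, whereas *Scn2a* had 70.2 ± 5.17 CPM and excitatory neurons 585 CPM. The inward rectifiers *Kcnj10* and *Kcnj16* had 99.1 ± 19.3 and 67.3 ± 15.8 CPM in OPCs, and 132 and 72.9 CPM in astrocytes, where they buffer potassium.

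Of the signaling pathways of the lineage, 0 of 5 Notch, 0 of 4 Wnt and 0 of 4 BMP and TGF-beta genes with at least 100 UMIs lay above all other types, against 4.25% of all genes, and these lists are too short to be read against that share. *Dll1*, a Notch ligand with fewer UMIs, was at 28.5, 33.9, 39.5 and 42.9 CPM against at most 6.31 CPM in the mean of another type. Its receptor *Notch1* had 65.5 ± 6.26 CPM in OPCs and 159 CPM in endothelial cells. *Id2* and *Id3*, inhibitors of basic helix-loop-helix factors and targets of BMP signaling, had 284 ± 59.2 and 118 ± 37.6 CPM in OPCs, 17.9 and 36.1 CPM in newly formed oligodendrocytes and 1046 and 905 CPM in astrocytes. The enzymes of cholesterol and lipid synthesis had no member above all other types among 10 with at least 100 UMIs, against 4.25% of all genes, and *Msmo1*, an enzyme of sterol synthesis, was 84.2 ± 22.2 CPM in OPCs against 307 CPM in mature oligodendrocytes and 1321 CPM in astrocytes.

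Of 42 cell cycle genes 6 reached 100 UMIs, and 1 of these, *Ccnd1*, lay above all other types, against 4.25% of all genes. *Ccnd1*, the cyclin that carries mitogen signals into the G1 phase, was at 679, 537, 507 and 570.5 CPM and counted in 58.6% (95% Wilson interval 56 to 61.3) of OPCs, against 15 CPM and 4.07% of newly formed oligodendrocytes. *Top2a*, a topoisomerase of dividing cells, was counted in 1.05% of OPCs, in 0 of 295 newly formed oligodendrocytes (which allows up to 3) and in 0.0721% of excitatory neurons. *Mki67*, the proliferation antigen, was counted in 0.524% of OPCs but in 3.24% of excitatory neurons, a type that does not divide. These shares are of unthinned cells, with medians of 1651 UMIs in OPCs and 6546 in excitatory neurons, so they do not rank these types. Any of 15 G2/M genes was counted in 5.98% of OPCs and 15.9% of excitatory neurons, or 3.74% and 2.99% after thinning to 1000 UMIs. At least 3 of them were counted in 4 OPCs, 2 each in WT replicate 1 and *Setd1a*+/- replicate 2. Any of 15 G1/S genes was counted in 22% of OPCs after thinning to 1000 UMIs, against 11.5% of newly formed oligodendrocytes and 10.1% of excitatory neurons. Unthinned, those shares were 31%, 32.2% and 46%.

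The comparison of genotypes opened with the targeted gene. *Setd1a* (ENSMUSG00000042308, chromosome 7, 127776670 to 127800122) had 7, 3, 3 and 2 UMIs in the OPCs, or 10.5, 3.91, 5.92 and 5.36 CPM, and was counted in 1.12% of them. The highest value was in WT replicate 1, and WT replicate 2 lay below both *Setd1a*+/- libraries. Its log2 FC was -0.29 (standard error 0.91) in a fit without the filter on low counts, which it did not pass. These UMIs are too few to show whether its level differed between the genotypes. A short deletion does not prevent the counting of RNA from the mutant copy, so this count does not check the labels. Among its relatives, *Kmt2a* had 46.7 ± 13.6 CPM, *Kmt2c* 55.6 ± 10.1 CPM and *Setd1b* 24.5 ± 11.2 CPM in OPCs, and 0 of 13 tested genes of the H3K4 methyltransferases and their subunits reached an unadjusted p below 0.05, against 2.01% of all genes tested.

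The share of OPCs did not separate the genotypes. OPCs made up 12.9% (95% Wilson interval 11.7 to 14.2) and 16.7% (15.3 to 18.1) of annotated cells in WT replicates 1 and 2, and 16.1% (14.6 to 17.7) and 13.3% (11.7 to 15.1) in *Setd1a*+/- replicates 1 and 2. The *Setd1a*+/- mean was lower by 0.09 percentage points, and a two-sided exact permutation test over the 4 libraries gave p = 1, where the smallest p that 2 against 2 libraries allow is 0.333. Within replicate 1 the *Setd1a*+/- share was 3.17 points higher and within replicate 2 3.35 points lower. Of the oligodendrocyte lineage cells OPCs made up 30.3, 49.9, 45.3 and 37.1%, which overlapped as well. The median mitochondrial share of UMIs was 3.33, 3.22, 4.45 and 3.79% in the OPCs, higher in both *Setd1a*+/- libraries (exact permutation p = 0.333).

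UMIs were then summed over the OPCs of each library and tested with edgeR's quasi-likelihood test, so that the libraries are the replicates. Each library pools mice, and the p-values measure the spread between these 4 libraries. Of 7363 genes tested, edgeR called 0 (0%) at an FDR below 0.05 and an FC above 1.5, and the smallest FDR was 0.9996. It called 13 genes without WT replicate 1, 13 without WT replicate 2 and 0 without either *Setd1a*+/- library, fits in which the lone library of a genotype is assumed to vary like the other pair. At an unadjusted p below 0.05 it found 148 genes (2.01%), 71 (0.964%) higher and 77 (1.05%) lower in *Setd1a*+/- mice. DESeq2, run on 15100 genes without the filter on low counts, found 12 at that threshold and called 0. The median log2 FC over all genes was 0.0028 with a median standard error of 0.37. In counts simulated from these OPC sums the test without the replicate block called 73.2% of 179 genes changed 4-fold and 0% of 189 genes changed 2-fold. Among unchanged genes it called 9 in the simulation of 4-fold changes, 0 in that of 2-fold changes and 5 in that without change. The fit with the block was not simulated.

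**Figure D4:**
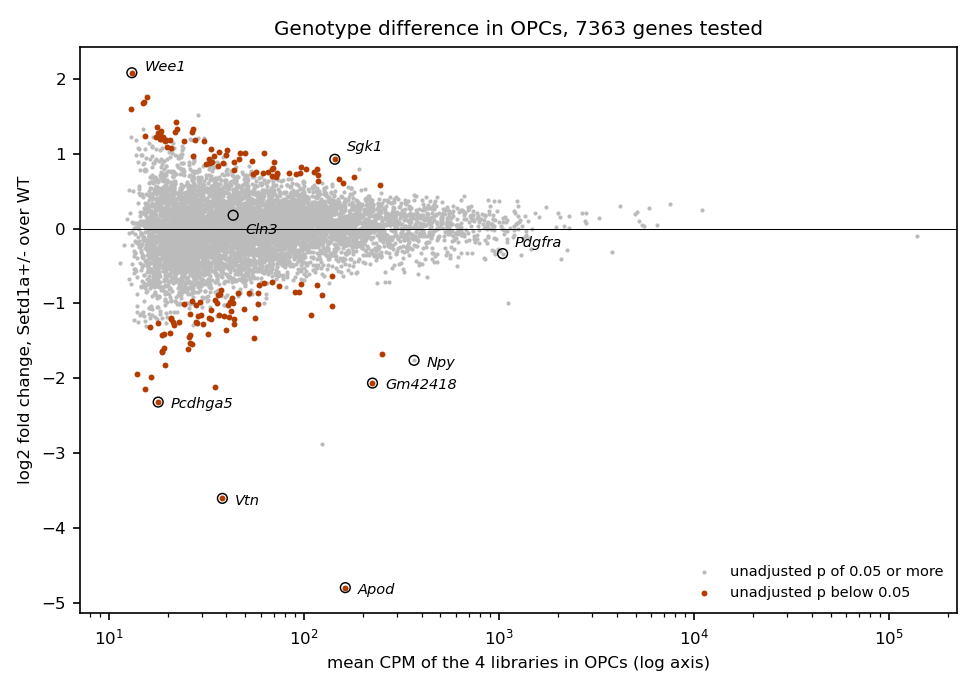
Log2 FC (*Setd1a*+/- over WT) of the 7363 tested genes against their mean level in the OPCs (CPM, logarithmic axis), with genes at an unadjusted p below 0.05 in red. The cloud is centered at 0, and *Apod*, *Vtn*, *Gm42418* and *Npy* lie far below it.

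With the replicate block, in which each *Setd1a*+/- library is compared with the WT library of its own replicate, edgeR called 2 genes (0.0272%) and found 340 (4.62%) at an unadjusted p below 0.05. Both called genes were lower in *Setd1a*+/- mice. They were *Apod* (ENSMUSG00000022548, chromosome 16, 31296192 to 31314808; log2 FC -4.43, FDR 1.1e-05 in edgeR with the block) and *Vtn*, the gene for the matrix protein vitronectin (ENSMUSG00000017344, chromosome 11, 78499091 to 78502324; log2 FC -3.53, FDR 0.00226 in edgeR with the block). *Apod* was at 61.5, 566, 9.87 and 13.4 CPM and *Vtn* at 52.5, 88.7, 5.92 and 5.36 CPM, so that the WT libraries lay above both *Setd1a*+/- libraries for each. Without the block their log2 FCs were -4.80 (standard error 1.10) and -3.60 (standard error 0.55), and both stayed below 0 when single libraries were left out, *Apod* at -5.65 without WT replicate 1 and -2.36 without WT replicate 2. *Vtn* was then called by edgeR without WT replicate 1 and without WT replicate 2, and *Apod* without WT replicate 1.

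Both genes rested on few cells. The 13 OPCs of WT replicate 2 with 5 or more *Apod* UMIs held 97.0% of the *Apod* UMIs and 89.7% of the *Vtn* UMIs of that library's OPCs. In WT replicate 1, 24 of 35 *Vtn* UMIs lay in 1 OPC. Among OPCs with at least 2 of the 4 markers, *Apod* was at 9.02, 17.9, 10.6 and 13.4 CPM, and the genotypes overlapped. *Vtn* was at 51.1, 9.62, 6.33 and 5.38 CPM, and WT replicate 1 alone stood apart. In those OPCs the block gave 1 call, *Gm42418* (log2 FC -2.16, FDR 0.00341 in edgeR), and the 2 genes no longer passed the filter on low counts. *Npy* was at 117, 1007, 132 and 209 CPM in all OPCs, where WT replicate 2 alone stood apart, and at 117, 179.9, 137 and 209.8 CPM in those with at least 2 markers, and the genotypes overlapped in both sets. The excess in WT replicate 2 was also seen outside the OPCs, as in astrocytes and microglia, but not in droplets of 10 to 100 UMIs. In those droplets *Apod* was at 87.1, 68.2, 42.4 and 77.1 CPM and *Npy* at 741, 934, 836 and 1170 CPM. In endothelial cells *Apod* was at 99.2, 155, 72.9 and 232 CPM, highest in *Setd1a*+/- replicate 2. *Apod* was at 4.83, 480.2, 8.54 and 8.14 CPM in astrocytes and 10.6, 297, 30.4 and 4.88 CPM in microglia, and *Npy* reached 722 CPM in the astrocytes and 292 CPM in the microglia of that library, against at most 39.0 CPM in the other 3 libraries.

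*Gm42418* (ENSMUSG00000098178, chromosome 17, 39846958 to 39848788), a noncoding RNA gene that overlaps a ribosomal RNA repeat, was at 487, 236, 39.5 and 134 CPM in all OPCs, and both WT libraries lay above both *Setd1a*+/- libraries. The same order of genotypes was seen in all 7 other types, for example at 279.7, 112, 27.3 and 62.8 CPM in newly formed oligodendrocytes. Its log2 FC was -2.06 (standard error 0.55), and it was not called in the fit of all OPCs with the filter on low counts, but was called without that filter and without WT replicate 2. In the droplets of the same libraries with 10 to 100 UMIs, which hold RNA free in the suspension, it was at 6792, 1042, 338 and 1034 CPM. The OPC libraries and the droplets put WT replicate 1 highest and *Setd1a*+/- replicate 1 lowest. The part of free RNA in the difference was not tested.

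**Figure D5:**
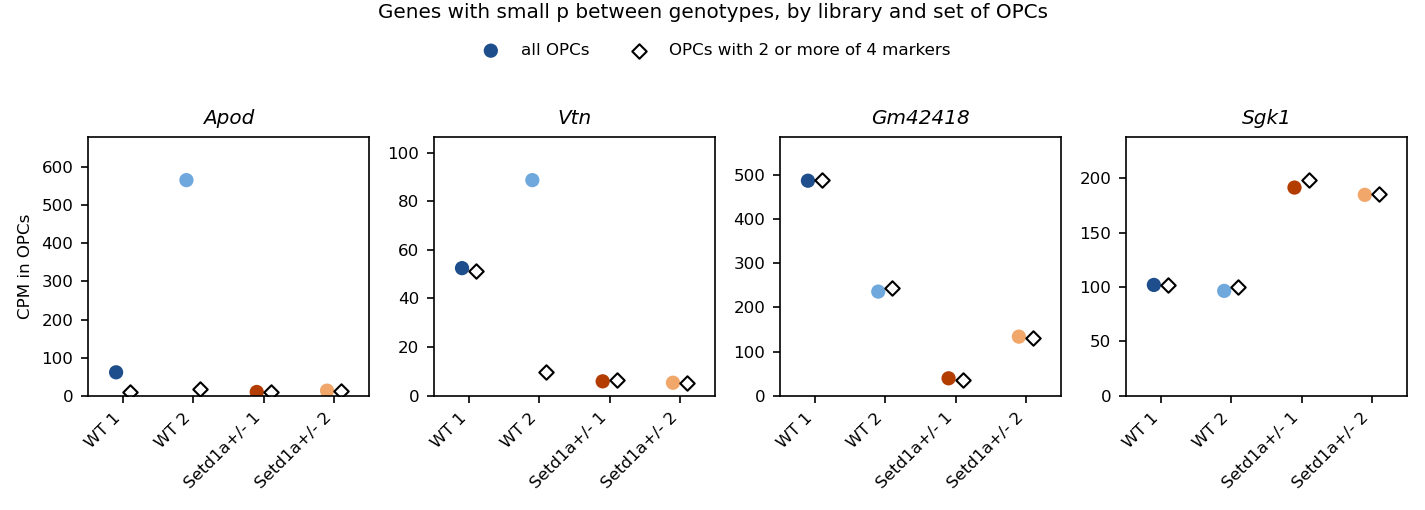
Levels of *Apod*, *Vtn*, *Gm42418* and *Sgk1* (CPM, linear axis from 0) in the 4 libraries, for all OPCs (filled circles) and for OPCs with UMIs of at least 2 of the 4 markers (open diamonds). Among OPCs with at least 2 markers *Apod* lies between 9.02 and 17.9 CPM in all libraries and *Vtn* at 9.62 CPM in WT replicate 2, while the circles and diamonds of *Gm42418* and *Sgk1* nearly coincide.

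Of all genes tested, 1009 (13.7%) had both *Setd1a*+/- libraries above both WT libraries and 985 (13.4%) had both below, and the genes named next were the 10 of each kind with the smallest p. None of them was called in the fit of all 4 libraries without the block. The first among those higher was *Sgk1*, a kinase induced by serum and glucocorticoids (ENSMUSG00000019970, chromosome 10, 21882184 to 21999903), at 102, 96.5, 192 and 185 CPM, with a log2 FC of 0.93 (standard error 0.24). It was higher in both replicates, and was at 102, 100.3, 198 and 186 CPM in OPCs with at least 2 markers. In the free RNA of the droplets *Sgk1* was also higher in both *Setd1a*+/- libraries, at 64.9, 50.5, 122 and 92.3 CPM, and in mature oligodendrocytes it was at 226, 441, 614 and 2084 CPM, again higher in both *Setd1a*+/- libraries. Also among them were *Wee1*, the kinase that delays entry into mitosis, at 6.00, 3.91, 23.7 and 18.7 CPM (log2 FC 2.08), and *Nedd9*, a scaffold protein of focal adhesions, at 6.00, 7.82, 21.7 and 26.8 CPM (log2 FC 1.76), both with few UMIs. *Sod1*, the cytosolic superoxide dismutase, was at 69, 79.5, 130.3 and 129 CPM, a small and even difference (log2 FC 0.80). The others were *Zfp664*, *Golt1b*, *Ado*, *Ypel2*, *Rbp4* and *Proser1*, with log2 FCs of 1.32, 1.01, 0.90, 1.69, 1.67 and 1.43. Of these *Ypel2* had 4, 6, 10 and 10 UMIs and *Rbp4* 6, 4, 11 and 9, which are also few, and *Zfp664* and *Proser1* had at most 20 in a library.

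Among the genes lower in *Setd1a*+/- mice, besides *Vtn*, *Apod* and *Gm42418*, was *Pcdhga5*, a protocadherin of the gamma cluster whose members share exons, at 36, 23.5, 3.95 and 8.03 CPM (log2 FC -2.32). *Vps37b*, a subunit of the ESCRT-I sorting complex, was at 40.5, 36.5, 13.8 and 10.7 CPM (log2 FC -1.61), and *Exoc6b*, a subunit of the exocyst, at 66, 57.4, 21.7 and 29.5 CPM (log2 FC -1.28). *Rbl2*, a pocket protein that restrains the cell cycle, was at 22.5, 22.2, 5.92 and 5.36 CPM (log2 FC -1.94), and *Trim28*, a corepressor of retroelements, at 24, 32.6, 9.87 and 8.03 CPM (log2 FC -1.63). *Ccdc181* and *Rps6kl1* had log2 FCs of -1.45 and -1.18. For *Rbl2* and *Trim28* the *Setd1a*+/- libraries held under 10 CPM each. *Cln3*, a lysosomal membrane protein that the study names for OPCs, was at 29.98, 50.8, 49.4 and 42.9 CPM, which overlapped between the genotypes, with a log2 FC of 0.18 (standard error 0.39).

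The gene lists were read in the same fit. Of their 433 genes 250 were tested, 0 were called, and 9 (3.60%) had an unadjusted p below 0.05, against 2.01% of all genes. Of the 9, 5 were higher and 4 lower in *Setd1a*+/- mice. Both shares were below the rate of 0.05 that the threshold alone would give, so 3.60% is not read as an excess. With the replicate block edgeR put 4.62% of all genes tested below that threshold, and the list counts are from the fit without the block. The 12 OPC markers had a median log2 FC of -0.15, with 4 of 12 above 0, against 3704 of 7363 over all genes. The 4 markers described first were all below 0, from -0.39 for *Vcan*, -0.33 for *Pdgfra* and -0.31 for *Ptprz1* to -0.07 for *Lhfpl3*, none at an unadjusted p below 0.05. *Pdgfra* was highest in WT replicate 1, and the genotypes overlapped. The 20 tested lineage transcription factors had a median of -0.09, and the 14 myelin and maturation genes one of 0.06, with 0 genes at an unadjusted p below 0.05 in either list.

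Of 11 tested G1/S genes, 10 had log2 FCs above 0 with a median of 0.36, against 3704 of 7363 and a median of 0.0028 over all genes. Of the 9 tested regulators on the same cell cycle list, 3 were above 0, with a median of -0.17. Over the whole list 13 of 20 were above 0, with a median of 0.07. Of the 11 G1/S genes 2 (*Gins2* and *Rrm2*) had an unadjusted p below 0.05 in edgeR, against 2.01% of all genes tested. *Gins2*, a subunit of the replicative helicase, was at 10.5, 13, 27.6 and 26.8 CPM (log2 FC 1.19), and *Rrm2*, a subunit of ribonucleotide reductase, at 10.5, 9.13, 21.7 and 29.5 CPM (log2 FC 1.35). Their UMIs were few, at 7, 10, 14 and 10 for *Gins2* and 7, 7, 11 and 11 for *Rrm2*. Both *Setd1a*+/- libraries lay above both WT libraries for *Gins2* and *Rrm2*, as for 13.7% of all genes tested, and neither was called. The share of OPCs with at least 2 G1/S genes was 11.8, 7.61, 10.3 and 15.4%, which overlapped between the genotypes. *Cdkn1b*, the inhibitor p27 that takes OPCs out of the cell cycle, was at 52.5, 57.4, 19.7 and 37.5 CPM (log2 FC -0.98), and *Ccnd1* had a log2 FC of -0.17. None of the 15 G2/M genes passed the filter on low counts.

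The other 6 list genes at an unadjusted p below 0.05 were 3 that were higher and 3 that were lower, and *Sqle* and *Fasn* share the list of cholesterol and lipid synthesis. Higher in *Setd1a*+/- mice were *Il6st*, the shared receptor subunit of the interleukin-6 family, at 25.5, 20.9, 37.5 and 48.2 CPM (log2 FC 0.88), *Sqle*, an enzyme of sterol synthesis, at 55.5, 48.2, 82.9 and 85.7 CPM (log2 FC 0.70), and the kainate receptor subunit *Grik1*, at 29.98, 22.2, 47.4 and 45.5 CPM (log2 FC 0.84). Lower were *Apod*, *Fasn*, the fatty acid synthase, at 51, 45.6, 25.7 and 26.8 CPM (log2 FC -0.88), and *Robo1*, a receptor of Slit guidance cues, at 54, 40.4, 21.7 and 29.5 CPM (log2 FC -0.89). Of 18 lipid synthesis genes 11 were above 0, and of 7 acute response genes 6 were above 0, with medians of 0.15 and 0.41, against 3704 of 7363 and a median of 0.0028 over all genes. None of the 7 acute response genes had an unadjusted p below 0.05. *Nr4a1*, an immediate early gene, was at 57, 79.5, 101 and 109.8 CPM and *Dnajb1*, a heat shock cochaperone, at 42, 33.9, 86.9 and 45.5 CPM, and for both genes the genotypes did not overlap, as for 13.7% of all genes in this direction. The mitochondrial share of the OPCs was also higher in both *Setd1a*+/- libraries (above), and its part in these values was not tested.

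Whether the genotype difference of the OPCs differed from that of related types was tested as an interaction in edgeR with the library as a block. Against mature oligodendrocytes 3 of 8745 genes (0.0343%) were called, against newly formed oligodendrocytes 5 of 6386 (0.0783%), and against astrocytes 0 of 6983 (0%), where edgeR had 248 genes at an unadjusted p below 0.05. Leaving out single libraries gave 7 to 17 calls (17 without *Setd1a*+/- replicate 2), 1 to 5 calls (1 without WT replicate 1) and 0 to 18 calls (18 without WT replicate 1). The called genes were *Apod* and *Ptgds* against both stages, *Hbb-bt* against mature and *Hbb-bs*, *Hba-a1* and *Hba-a2* against newly formed oligodendrocytes. Without the OPCs of fewer than 2 markers, edgeR called 0 of 8666, 3 of 6389 and 0 of 6946 genes, with 316, 248 and 247 at an unadjusted p below 0.05, and the 3 were *Hbb-bs*, *Hba-a1* and *Hba-a2*. The differences for *Apod* were then 0.15 against mature (FDR 1 in edgeR) and 0.51 against newly formed oligodendrocytes (FDR 1), from -3.90 and -3.87 in all OPCs. *Apod* in WT replicate 1 had 35 of its 41 UMIs in 1 OPC. Against mature oligodendrocytes its difference was -2.20 at the smallest over 4 fits of all OPCs that left out 1 library. *Apod* was not called there with a minimum count of 30 or with library size alone. *Ptgds*, the prostaglandin D synthase of mature oligodendrocytes and meninges, was at 526, 239.9, 43.4 and 196 CPM in OPCs, and 191 of the 351 UMIs of WT replicate 1 lay in 1 OPC. In OPCs with at least 2 markers *Ptgds* was at 240.5, 188, 40.1 and 196 CPM, where the genotypes overlapped, and its differences were -1.04 and -0.47 (FDR 1 for both in edgeR). The globin *Hbb-bs* was at 2992, 23.5, 49.4 and 1398 CPM, with 1376 of 1996 UMIs of WT replicate 1 and 507 of 522 UMIs of *Setd1a*+/- replicate 2 in 1 OPC each. In the same 2 libraries *Hba-a1* had 376 of 584 and 227 of 232 UMIs in 1 OPC each, *Hba-a2* 308 of 478 and 186 of 187, and *Hbb-bt* 243 of 289 and 17 of 18.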

How the data were processed

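Per the labels and the study's methods, PFC tissue was dissociated with papain and single-cell libraries were made in droplets (10x Chromium). The authors counted UMIs with Cell Ranger 3.0.2 and, per the submitters' processing notes, used the build mm10 (GRCm38). They deposited raw UMI counts per gene and barcode for each library, and a table with the type and library of each annotated PFC cell from clustering in Seurat 3.2.0, which had left out cells with few genes or a high mitochondrial share. How the authors treated doublets is not given in the sources used here, and no caller was run. The 4 deposited PFC matrices held 17776069, 24594416, 17236661 and 15154268 UMIs over all barcodes.

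Counts were summed over the OPCs of each library, and 30934 of 31053 gene IDs were placed with GENCODE vM21. Genotypes were compared with edgeR 4.0.16 (quasi-likelihood test, TMM, filterByExpr with a minimum count of 10, R 4.3.3), calling genes at a Benjamini-Hochberg FDR below 0.05 and an FC above 1.5. DESeq2 1.42.0, the replicate block, other filters and scalings, and leaving out each library were alternatives. Per the study's methods a biological replicate held 1 WT and 1 mutant library, which pairs them by number, and deviations of the same replicate correlated at r = 0.361 over 4000 genes. The test was run on simulated data with 200 changed genes. Intervals are 95% Wilson intervals, and for a count of 0 up to 3 counts are allowed. Ranks of genes against another type used ratios with 1 CPM added to both levels.

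Named genes included the 20 with the largest ratio to the next type. The 10 with the largest and the 10 with the smallest ratio to newly formed oligodendrocytes were also named. All of these were taken among genes with at least 100 UMIs in the OPCs. The others were the 10 with the smallest p in each direction among genes whose libraries did not overlap, called genes, and genes on the lists. The OPC cells and the 25 lists (433 genes) were chosen with earlier results of these data known. The 15 OPCs with high *Apod*, and the fits without OPCs of fewer than 2 markers, were chosen after the values were seen. Columns that map to no sample numbered 0. Some members of the lists and named sets are not reported here.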

Additional observations from a re-analysis of the deposited data

Results flagged for a closer look

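The genotype difference (*Setd1a*+/- minus WT, log2) differed between OPCs and another lineage stage for the following genes, by edgeR's interaction test with the library as a block. Against mature oligodendrocytes the difference in OPCs was lower by 1.78 for *Ptgds* (-1.78), by 3.90 for *Apod* (-3.90) and by 5.91 for *Hbb-bt* (-5.91). *Apod* was at 1918, 2372, 1111.5 and 2371 CPM in mature oligodendrocytes, where the genotypes overlapped, and WT replicate 2 was also the highest library for *Apod* in astrocytes and microglia. Against newly formed oligodendrocytes the values were -1.29 for *Ptgds*, -3.87 for *Apod*, 4.48 for *Hbb-bs*, 6.14 for *Hba-a1* and 9.34 for *Hba-a2*. *Hbb-bs* was at 4732, 5.10, 35.1 and 17.9 CPM in newly formed oligodendrocytes.

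Over the 4 fits that left out 1 library, the values against mature oligodendrocytes ranged from -2.60 to -1.18 for *Ptgds* and from -5.18 to -2.20 for *Apod*. Neither gene was called against mature oligodendrocytes with a minimum count of 30 or with library size alone. *Hbb-bt* and the 5 genes against newly formed oligodendrocytes were called in 2 of the 4 fits each, and the value of *Hbb-bt* ranged from -8.02 to 1.27 over these fits. Against newly formed oligodendrocytes the values ranged from -2.22 to -0.62 for *Ptgds*, from -4.25 to -2.70 for *Apod*, from 1.14 to 6.92 for *Hbb-bs*, from 2.20 to 6.29 for *Hba-a1* and from 3.47 to 11.17 for *Hba-a2*. Without the OPCs of fewer than 2 markers the values against mature oligodendrocytes were -1.04 for *Ptgds*, 0.15 for *Apod* and -5.82 for *Hbb-bt*, and none was called (FDR 1, 1 and 0.705 in edgeR). Against newly formed oligodendrocytes they were then -0.47 for *Ptgds* and 0.51 for *Apod*, which were not called (FDR 1 for both), and 4.52, 6.19 and 9.40 for *Hbb-bs*, *Hba-a1* and *Hba-a2*, which were. The values of *Apod* in the OPCs of WT replicate 2 lie mostly in the 13 cells described above, those of WT replicate 1 mostly in 1 cell, and those of *Hbb-bs*, *Hba-a1*, *Hba-a2* and *Hbb-bt* mostly in 1 cell each of WT replicate 1 and *Setd1a*+/- replicate 2. The part of free RNA in the interactions was not tested.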

How the results depend on the processing

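Of 508 values recomputed under alternatives, 467 kept their direction and side of the threshold, or stayed within the spread between libraries or 1.5 times the count, 26 moved, 10 passed the threshold newly (*Vtn*, *Apod* and *Gm42418*) and 5 reversed. Of the 508 values 399 were of named genes, of which 388 counted as the same. Most named genes were chosen because their libraries did not overlap, so leaving out a library could not reverse their order in CPM. The 32 marker ratios all counted as the same, for *Pdgfra* a ratio of 23.2 judged against an SD over libraries of 32.8. Much of this agreement was thus fixed by the choice of values and rules. With the replicate block (paired libraries) edgeR called 2 genes and found 340 at an unadjusted p below 0.05, and without the OPCs of fewer than 2 markers 1 and 360. Without the filter on low counts edgeR called 12 of 15100 genes and had 385 at p below 0.05. DESeq2, also on 15100 genes, had 12 at p below 0.05, and edgeR with a minimum count of 30 had 48 of 3663. Leaving out single libraries gave 0 to 13 calls and 175 to 600 genes at p below 0.05 (600 without *Setd1a*+/- replicate 2).

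The interaction against mature oligodendrocytes had 0 calls with a minimum count of 30 and 0 with library size alone, 0 without the OPCs of fewer than 2 markers (against 3 for newly formed oligodendrocytes), and 7 to 17 when single libraries were left out; that against newly formed oligodendrocytes had 1 to 5 and that against astrocytes 0 to 18. The genotype difference in the OPC share was 1.10 points among oligodendrocyte lineage cells, -0.09 in the paired comparison, and -1.99 to 1.81 without single libraries, with reversals to 1.81 without WT replicate 2 and 1.27 without *Setd1a*+/- replicate 2. Genes above all other types numbered 111 after thinning and 213 to 259 without single libraries. *Setd1a* ranged from -0.84 to 0.45 (0.45 without WT replicate 1) and *Cln3* from -0.18 (without WT replicate 1) to 0.67. The causes were not tested. *Setd1a* has no value with a minimum count of 30, and no 2-fold change was called in the simulated counts, tested without the block.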
